A study of Mus musculus with 48 samples.

Results

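C/EBPα is a transcription factor that binds DNA through a basic leucine zipper and drives genes of the mature liver, among them those of plasma proteins, gluconeogenesis and the urea cycle. It is also required by the precursors of granulocytes, and the liver is a site of blood formation before birth. Binding of C/EBPα was compared here between newborn livers (postnatal day 0.5, P0.5) and livers of mice at postnatal day 14 (P14), measured by chromatin immunoprecipitation followed by sequencing (ChIP-seq) with 2 replicates at each age. The 4 samples, of 48 in the series, were wild-type livers of F1 mice (C57Bl6/CBA), untreated; the protocol names male mice and 2 diets, standard chow and a high fat diet, without saying which mice had which. The antibody was raised against C/EBPα (Santa Cruz, C-18), and each sample is a bulk liver extract. Further C/EBPα samples were from embryos (E15.5 and E18.5, in days) and adults at postnatal day 60 (P60); these, and those of HNF4α, another transcription factor of hepatocytes, at all 5 ages, came from wild-type livers of the same strain. RNA was read in 3 wild-type livers (WT) and 3 livers of C/EBPa lox/lox / Alfp-Cre mice, in which Cre made in the liver lineage deletes the floxed gene; 2 HNF4α knockout libraries entered only the estimate of the spread. The sample labels give an age of 60 days for the RNA livers and the series text gives E18.5.

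A region of an age was a stretch of merged peaks that held a peak of each replicate. Regions of both ages were then joined where they overlapped by at least 1 bp. The result was 95855 regions in 3 classes, out of 107812 regions for C/EBPα at any of the 5 ages. A kept region was bound at both ages (31135 regions, 32.5%), a lost region at P0.5 only (61189, 63.8%), and a gained region at P14 only (3531, 3.68%). The gained count is the least firm: it was 6886 without P14 replicate 1 and 5784 without P14 replicate 2, and 38.7% of gained regions held a peak in 1 of the P0.5 lists. The lists give where a peak was called and hold no peak height, so a loss means that a peak was no longer called in both replicates. A gene was assigned every region within 5 kb of its annotated start (transcription start site, TSS) in the mouse build mm9. Each gene had 1 start, its 5′ end in the gene table, and other starts of a gene were not examined.

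Promoter sequences are shown for 6 genes whose start in the gene table lay inside a region. Only promoters with the C/EBP motif TTGCNNAA, where N is any base, on either strand were eligible. That all 6 held it therefore follows from the choice. For each gene symbol, the first RefSeq promoter with the motif was taken. Whether the start of that promoter was the one inside the region was not checked. The first 3 belong to genes with a kept region over the start and strong RNA loss in the knockout. The other 3 had a lost region there and encode an apolipoprotein (Apoa2), a protein of neutrophil granules (Ngp) and alpha-fetoprotein (Afp). Each line gives the 250 bases before the start, 5′ to 3′ along the gene, from RefSeq on build GRCm38.p6; capitals mark the motif matches.
Cyp3a25 (chr5:146009619-146009868, minus strand): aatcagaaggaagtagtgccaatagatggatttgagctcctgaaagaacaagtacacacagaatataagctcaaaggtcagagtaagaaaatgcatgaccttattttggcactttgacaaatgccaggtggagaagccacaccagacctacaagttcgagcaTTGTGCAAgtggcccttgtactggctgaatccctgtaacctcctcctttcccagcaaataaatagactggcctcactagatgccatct
Saa4 (chr7:46732604-46732853, minus strand): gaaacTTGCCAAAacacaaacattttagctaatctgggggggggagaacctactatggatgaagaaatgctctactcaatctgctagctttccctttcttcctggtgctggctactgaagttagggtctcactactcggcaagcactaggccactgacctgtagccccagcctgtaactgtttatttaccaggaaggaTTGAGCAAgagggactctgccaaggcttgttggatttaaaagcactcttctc
Cyp2a4 (chr7:26306942-26307191, plus strand): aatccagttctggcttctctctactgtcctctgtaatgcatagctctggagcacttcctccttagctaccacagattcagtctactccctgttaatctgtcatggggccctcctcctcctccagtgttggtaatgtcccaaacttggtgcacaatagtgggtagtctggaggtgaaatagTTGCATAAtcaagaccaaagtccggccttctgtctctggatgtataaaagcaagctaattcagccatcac
Apoa2 (chr1:171221314-171221563, plus strand): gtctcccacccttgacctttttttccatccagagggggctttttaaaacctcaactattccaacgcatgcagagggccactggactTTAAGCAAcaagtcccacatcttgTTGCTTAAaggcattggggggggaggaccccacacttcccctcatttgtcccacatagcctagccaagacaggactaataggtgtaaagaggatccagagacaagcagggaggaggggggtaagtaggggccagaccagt
Ngp (chr9:110419558-110419807, plus strand): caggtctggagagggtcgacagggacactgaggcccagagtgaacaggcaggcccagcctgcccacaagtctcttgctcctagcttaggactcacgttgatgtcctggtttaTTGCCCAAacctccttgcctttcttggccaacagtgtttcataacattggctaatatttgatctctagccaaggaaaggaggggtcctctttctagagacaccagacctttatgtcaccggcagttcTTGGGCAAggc
Afp (chr5:90490464-90490713, plus strand): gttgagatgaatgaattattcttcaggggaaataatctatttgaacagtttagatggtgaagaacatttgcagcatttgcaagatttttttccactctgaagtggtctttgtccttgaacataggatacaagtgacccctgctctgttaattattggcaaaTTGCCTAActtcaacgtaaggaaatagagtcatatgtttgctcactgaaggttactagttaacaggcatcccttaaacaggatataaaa

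The match lay 88 bases before the start in Cyp3a25 and 70 in Cyp2a4, both cytochrome P450 enzymes. Saa4, a serum amyloid protein, held matches 245 and 52 bases before its start. Among the genes with a lost region over the start, Apoa2 held matches 164 and 140 bases before the RefSeq start. Ngp held them at 138 and 11 bases, and Afp at 89 bases. The matches were not placed against the regions, which are on mm9. The loss over the start of Apoa2 was the least clear of these, since replicate 1 of P14 still held a peak there. Over all 32851 promoters in the RefSeq table, windows from 250 bases before to 50 after the start, 10.8% held this motif. The share was 17.4% of the 3252 promoters of genes with a kept region over the start and 13.1% of 99 with a gained one. It was 10.3% of 2092 with a lost one and 8.68% of the 16518 with no region there. The motif GAGGAAGT, bound by ETS factors such as PU.1 of myeloid cells, was in 4.78% of the promoters with a lost region, 2.64% of those with a kept one and 3.2% of all. The median GC content was 59.3% with a kept or gained region, 57.3% with a lost one and 55.7% with no region over the start. It was 52.7% over all promoters, of which only 21961 were matched to the gene table. These shares describe letters in the windows; promoters were matched to the gene table by symbol, since the builds differ.

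C/EBPα lists at P14 were shorter than those at P0.5. There were 107438 and 121624 peaks at P0.5, and 40636 and 45245 at P14. Peaks were narrower in both P0.5 lists, with median widths of 351 and 337 bp, than in both P14 lists, with 638 and 642 bp. The bases covered fell less than the number of peaks, from 41.4 and 45.1 Mb to 27.7 and 31.0 Mb. The ages did not overlap in any of these measures, and the exact permutation test of 2 lists against 2 gave p = 0.33 for each (2-sided), the smallest it can give. Replicates agreed well within an age, with a Jaccard index (shared over covered bases) of 0.611 at both ages, against 0.30 to 0.33 between ages.

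In the full lists, most P14 regions overlapped a P0.5 region. Of the 34737 P14 regions, 89.8% overlapped a P0.5 region, whereas 35.3% of the 94619 P0.5 regions overlapped a P14 region. Both this overlap and the excess of lost over gained regions depended on the length of the lists. With each list cut to its widest 40636 peaks, 16474 regions were gained, 16317 kept and 10139 lost. Gained regions then outnumbered kept ones, so most P14 binding was not shared with P0.5 at that setting. The peaks of P0.5 that this left out were those under about 391 or 392 bp. The broad newborn regions were the ones that stayed: with the P0.5 regions divided into 5 equal classes of width, 13.7% of the narrowest (135 to 332 bp) overlapped a P14 region, then 20.5%, 29.9%, 44.7% and, in the widest (547 bp and more), 67.8%. The median width was 390 bp for lost, 678 bp for gained and 786 bp for kept regions.

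**Figure D1:**
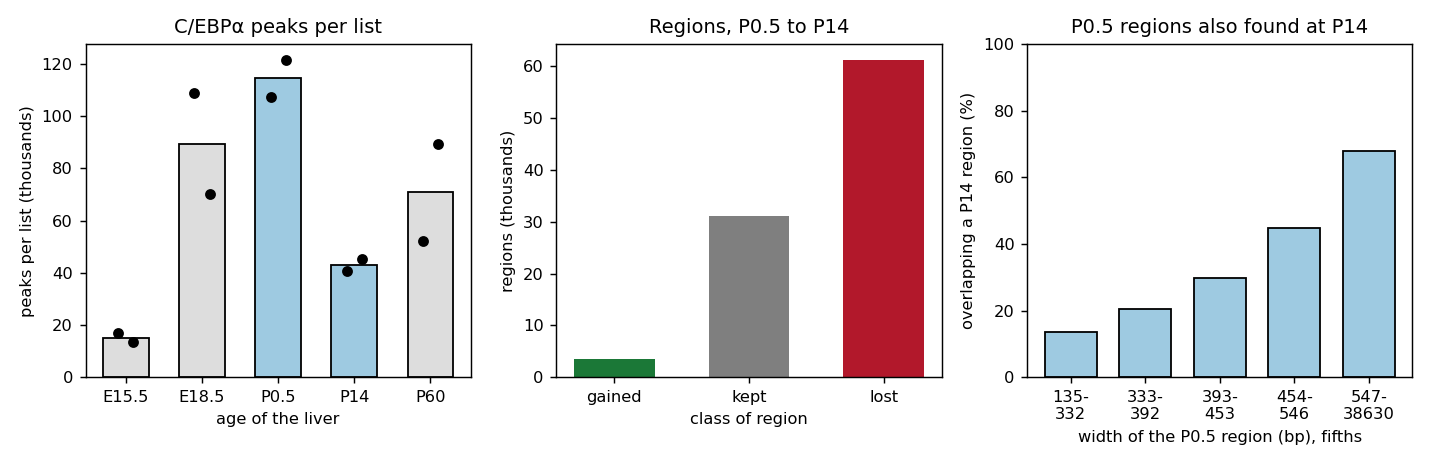
Left, C/EBPα peaks per list (axis in units of 1000) at 5 ages; bars are means and points the 2 lists, with the ages compared in blue. Middle, regions (same unit) gained, kept and lost between P0.5 and P14. Right, percent of P0.5 regions that overlapped a P14 region, by width in bp in 5 equal classes, from 13.7% in the narrowest to 67.8% in the widest.

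Kept regions lay nearest to the starts of genes, and they were also the widest. The start of a gene lay inside 10.0% of kept, 3.61% of lost and 3.23% of gained regions, and 30.4%, 25.0% and 18.8% lay within 5 kb of a start. Wider regions hold a start, or a peak of another list, more easily. The classes were not matched for width, here or in the shares below. The loss was clean for most lost regions, of which 83.5% (51097) held no peak in either P14 list. Gained regions were less clean: 61.1% (2157) held no peak in either P0.5 list and 38.7% (1365) held a peak in 1 of them. Gained regions were unevenly placed on the chromosomes, with 7.9% on chromosome X against 1.94% of kept and 2.23% of lost regions. Of the 279 gained regions on X, 175 lay between 120 and 125 Mb, where the Astx genes stand in many near-identical copies, and 37 between 50 and 55 Mb. Between 120 and 125 Mb, 150 of the 175 also held an HNF4α region at P14. Reads of such copies may be placed on any of them, so the genes there with the most gained regions, among them Astx6 and Astx3, are uncertain. Without X and Y, 3203 regions were gained.

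Gained regions were bound at P60 more often than lost ones, and lost regions more often at E18.5. At P60, the 2 lists held a peak in 64.2% and 78.0% of gained regions, in 80.2% and 93.8% of kept ones, and in 15.9% and 37.99% of lost ones. At E18.5 the order was different: 32.6% and 17.2% of gained, 96.7% and 92.6% of kept, and 78.4% and 50.2% of lost regions held a peak. At E15.5 a peak was found in 3.00% and 2.35% of gained, 39.5% and 30.9% of kept, and 5.46% and 3.66% of lost regions. The spread between the lists of an age was wide, since P60 held 52237 and 89407 peaks and E18.5 held 108853 and 70171. Gained nonetheless exceeded lost regions in each P60 list, and lost exceeded gained regions in each E18.5 list. With a P60 region taken as a peak in both lists, the shares were 58.8% of gained, 79.0% of kept and 14.3% of lost regions. When the classes were built from 1 list of each age, the 4 pairings gave 44.3% to 47.2% of gained and 9.73% to 12.5% of lost regions with a P60 region.

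Followed through all ages, 49.3% of gained regions (1739) had a C/EBPα region at P60 and at neither embryonic age, and 36.1% (1273) had none at E15.5, E18.5 or P60. Kept regions were mostly regions of long standing. Of these, 49.6% (15429) were also bound at E18.5 and P60, and 24.7% (7680) at all 3 other ages. Lost regions were 36.3% (22214) also bound at E18.5 only and 47.7% (29174) with a region at no other age. Here an age counts only with a peak in both of its lists; in single lists, 78.4% of lost regions held a peak in replicate 1 of E18.5.

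HNF4α lay on gained and kept regions at P14 more often than on lost ones. Its 2 lists at P14 held a peak in 44.5% and 45.5% of gained, 45.2% and 45.8% of kept, and 7.80% and 7.54% of lost regions. At P0.5, where both HNF4α lists were identical and were taken as 1, a peak was found in 14.8% of gained, 35.9% of kept and 8.19% of lost regions. An HNF4α region at P14 but not at P0.5 was found on 27.1% of gained regions (956), 10.8% of kept (3376) and 1.76% of lost ones (1076). With an HNF4α region taken as a peak in both P14 lists, the shares were 40.3% of gained, 41.0% of kept and 6.74% of lost regions. At equal list lengths they were 32.8%, 51.5% and 10.95%, so that kept regions then stood above gained ones. Without X and Y, 37.2% of gained regions held an HNF4α region at P14. The HNF4α lists at P0.5 and P14 rest on 1 and 2 libraries, and no test and their difference was not tested.

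**Figure D2:**
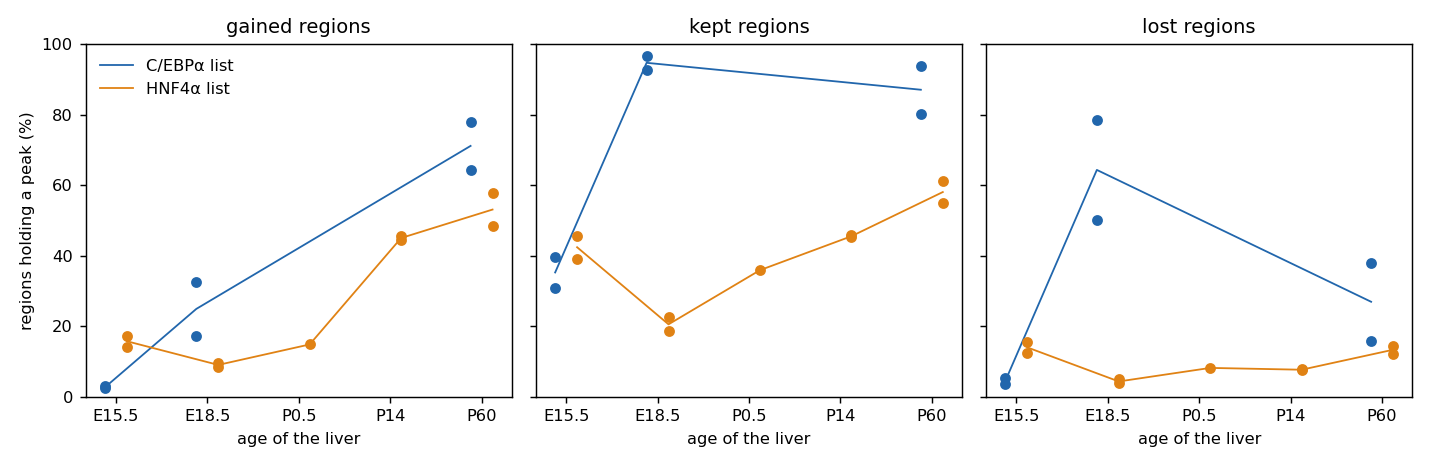
Percent of gained, kept and lost C/EBPα regions that held a peak in each C/EBPα list (blue) and HNF4α list (orange) by age of the liver; points are lists and lines join means. The C/EBPα lists of P0.5 and P14, which set the classes, are left out; gained regions rise to 64.2% and 78.0% at P60, while lost regions stand highest at E18.5.

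The genes near these regions were described with 21 lists of genes, 13 for liver functions and 8 for markers of other cells in the liver. Of all 22369 protein-coding genes, 30.7% had a kept region within 5 kb of the start, 41.7% had a lost one, 25.0% had lost regions only, 2.37% had a gained region and 43.2% had none. At P0.5 56.1% of protein-coding genes had a region in both lists, and at P14 31.8%.

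Genes of hepatocyte function mostly kept a region. All 17 genes for plasma carriers and protease inhibitors had a kept region, among them Alb (albumin) and Rbp4 (the retinol carrier), and so had 41 of 43 genes of coagulation, complement and the acute phase. Kept regions were found at 20 of 22 genes of glucose and glycogen metabolism, 18 of 21 of apolipoproteins, and 38 of 46 of cytochrome P450 and xenobiotic metabolism. They were found at 26 of 32 genes of the urea cycle and amino acid catabolism, 20 of 25 of fatty acid oxidation and 18 of 24 of bile acid synthesis and transport. Genes with lost regions only were 0 of 17, 0 of 43, 1 of 22, 2 of 21, 5 of 46, 5 of 32, 3 of 25 and 2 of 24 in the same order. Cps1, the entry enzyme of the urea cycle, had 4 kept regions and no other, and 1 of them lay over its start (chr1:67168836-67169905, mm9). Alb kept 3 regions, with 1 over its start (chr5:90889251-90890226). That region held a peak in each of the 10 C/EBPα lists and in every HNF4α list, the 2 identical P0.5 lists taken as 1. Alb lost 1 region, from 1507 to 2004 bp after the start, that had been bound in both lists of E18.5 and P0.5.

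Other liver lists held shares of genes with lost regions only nearer to the 25.0% of all protein-coding genes. In fatty acid, triglyceride and cholesterol synthesis these were 8 of 27 genes (29.6%), among them Lpin1 (a phosphatidate phosphatase) with 4 lost regions and Sqle (squalene epoxidase) with 3. Among liver transcription factors and nuclear receptors, 37 of 51 kept a region and 10 (19.6%) had lost regions only. Hnf4a itself was one of the 10, by its start in the gene table (chr2:163332544). Its 2 regions lay from 926 to 1459 and from 3645 to 4143 bp after that start. They held a peak in both lists at E18.5 and P0.5, in neither at P14, and in replicate 2 at P60. No HNF4α list held a peak within 5 kb of that start. The rest of the gene, up to chr2:163398646, and any other start in it were not examined. Nr1i3, the xenobiotic receptor CAR, had 3 lost regions. Of these, the one from -1110 to -670 bp still held a peak in replicate 2 of P14. Cebpa, the gene of the factor, kept the region over its own start (chr7:35903755-35904637), bound in all 10 C/EBPα lists, and another from 1817 to 2496 bp. Its other 2 regions counted as lost, though each held a peak in replicate 2 of P14 and in both P60 lists.

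Genes of the fetal liver and the cell cycle stood nearer to the background. Of 23 fetal liver genes 8 kept a region and 8 had lost regions only, and of 33 cell cycle genes 14 kept one and 11 had lost regions only. Neither list had a gained region, which 2.37% of protein-coding genes had. At equal list lengths a gained region was found at 8 of 33 cell cycle and 1 of 23 fetal liver genes. Of all protein-coding genes 3355 of 22369 then had one. The region over the start of Afp (chr5:90919434-90919946) held a peak in both lists at E15.5, E18.5 and P0.5 and in none at P14 and P60, while the 4 other Afp regions were kept. At P60 the regions of Afp were fewer, with 1 peak in replicate 1 and 3 in replicate 2 within 5 kb, against 4 in each P14 list and 5 in each P0.5 list. H19, an imprinted RNA of fetal tissues, had 2 lost regions and no peak within 5 kb in any P14 or P60 list. Dlk1 and Meg3, 2 more imprinted genes, also had lost regions only.

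Markers of neutrophils and their precursors were the list with the largest share of genes with lost regions only. These were 16 of 22 genes (72.7%), against the 25.0% of protein-coding genes; 4 genes had a kept region and 2 had none. In the single lists, 20 and 21 of the 22 genes had a peak within 5 kb at P0.5, 5 and 5 at P14, and 4 and 10 at P60. At E18.5 these were 21 and 16, and at E15.5 6 and 6. The list kept its place when the lists were cut to equal length, with 11 of 22 genes (50.0%) with lost regions only against 6.59% of protein-coding genes. Leaving out any 1 of the 4 lists gave 15 to 17 genes. Ngp had 5 lost regions, from -4670 bp to 4262 bp, and no peak in any list of P14 or P60; the one over its start (chr9:110321914-110322488) was bound in both lists of E18.5 and P0.5. Cxcr2, a chemokine receptor of neutrophils, also had 5 lost regions and none in any P14 or P60 list. Its region over the start (chr1:74200058-74200728) was seen in the P0.5 lists and in no other C/EBPα list. Itgam, an integrin subunit of myeloid cells, had 4 lost regions, and Lyz2, the lysozyme of myeloid cells, 5 lost and 1 kept. Elane, the neutrophil elastase, went the other way, with 2 kept regions and 1 gained region, the latter with a peak in replicate 2 of P0.5.

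Macrophage markers held a similar pattern in fewer genes: 8 of 17 (47.1%) had lost regions only, against 25.0% of protein-coding genes, and 2 had a kept region. At P0.5 13 and 11 of these genes had a peak, at P14 4 and 3, and at P60 0 and 4. Mrc1, the mannose receptor, had 3 lost regions and no peak in a P14 or P60 list. At equal list lengths, 3 of the 17 genes (17.6%) had lost regions only, against 6.59% of protein-coding genes. Lost regions only were found at 5 of 14 lymphocyte, 5 of 14 stellate cell, 4 of 14 endothelial, 4 of 13 bile duct and 2 of 12 megakaryocyte markers. Of the 21 erythroid markers, 15 had no region at either age, including the globin genes, and 1 had lost regions only. In bulk tissue, a change in how many cells of a type are present cannot be told apart from a change of binding within that type. Summed RNA of the 22 neutrophil markers, at the single age with RNA, was 59617 to 82222 normalized reads in WT and 43139 to 112349 in the knockout, with no member at 0 in all 6 libraries. The part of blood cells in the lost regions was not tested.

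**Figure D3:**
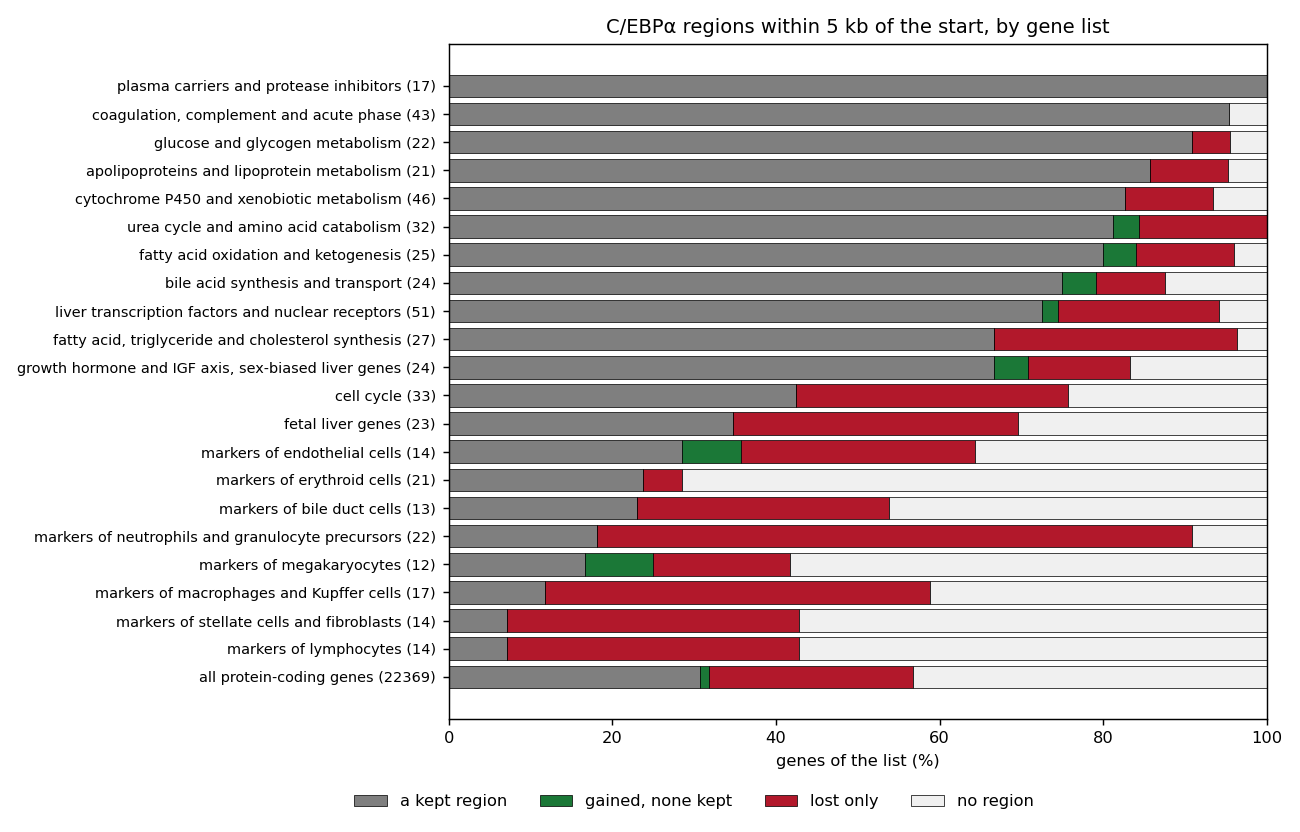
For each gene list and for all protein-coding genes (number of genes in brackets), the percent of genes with a kept C/EBPα region within 5 kb of the start (grey), a gained but no kept region (green), lost regions only (red) or no region (white). Liver function lists are mostly grey, and the neutrophil list shows the widest red bar with 16 of 22 genes.

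Few genes of any liver list had a gained region, and most of those genes also had a kept one. The lists with a gained region at more than 2 genes were picked by that count. They held one at 5 of 46 genes for xenobiotic metabolism, 5 of 32 for amino acid catabolism and 5 of 51 for transcription factors. The count was 4 of 27 for lipid synthesis, and 3 of 17, 3 of 25 and 3 of 24 for plasma carriers, fatty acid oxidation and the growth hormone axis. Other liver lists had 2 of 43 for coagulation, 2 of 24 for bile acids, 2 of 22 for glucose and 2 of 21 for apolipoproteins. Cell cycle had 0 of 33 and fetal liver 0 of 23. Of all protein-coding genes 2.37% had a gained region, a smaller share than in each liver list except cell cycle and fetal liver. Khk, which phosphorylates fructose, gained 2 regions inside the gene (chr5:31227433-31228263 and chr5:31228291-31229041) beside 3 kept ones. Both held a peak in each P14 and P60 list of C/EBPα and in no earlier one. Both also held a peak in every HNF4α list from P0.5 on. Igfals, which carries IGF1 in blood, gained a region over its start (chr17:25014171-25014700), and Igf1 gained 1 from 3368 to 4214 bp after the start; both were bound in each P60 list and in no embryonic list. Mlxipl, the carbohydrate response factor ChREBP, and Pdk4, a kinase that restrains pyruvate use, each gained 1 region before the start, with the same pattern. Tdo2, the first enzyme of tryptophan breakdown, had a gained region and no other (chr3:81777868-81779356). It held a peak of replicate 1 at P0.5, of replicate 2 at E18.5 and of all P14 and P60 lists.

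**Figure D4:**
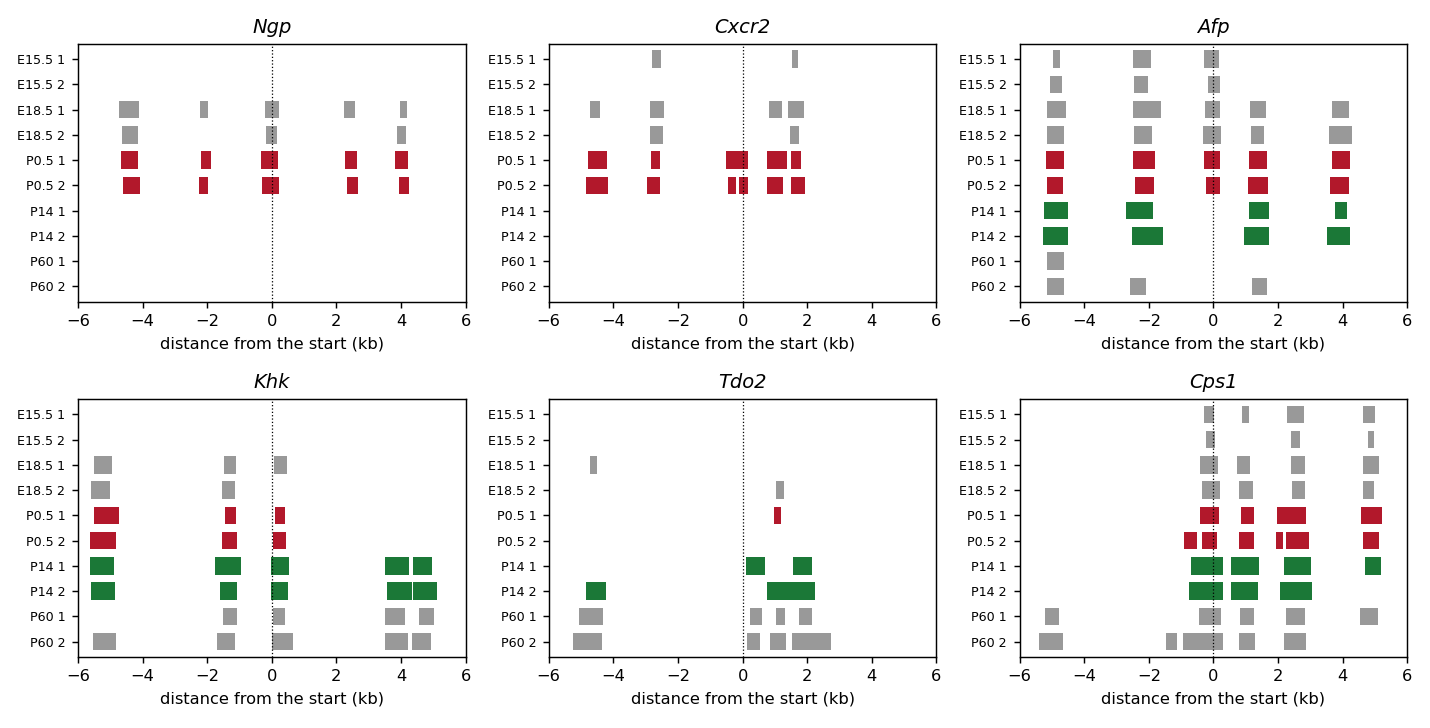
C/EBPα peaks around the start of 6 genes, in kb along the gene (dotted line at the start), with 1 row for each list from E15.5 to P60; P0.5 is red, P14 green and other ages grey. Ngp and Cxcr2 have peaks up to P0.5 and none later, Afp loses the peak at the start, Khk and Tdo2 gain peaks inside the gene, and Cps1 keeps its peaks.

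RNA from the C/EBPα knockout was used to ask which of these genes changed without the factor, at the age of those livers, which the labels and the series text give differently. In WT, Afp was at 625821, 499143 and 706964 normalized reads and H19 at 724668, 303520 and 524635, and the 21 erythroid markers summed to 1076180 to 4019378. RNA at P0.5 or P14 was not analysed here. Cre was made in the liver lineage, and whether blood cells in these livers lost the factor was not tested. Cebpa was at 9999, 9594 and 5511 normalized reads in WT and 322, 419 and 998 in the knockout, a fall by 3.98 ± 0.44 on the log2 scale (SE; adjusted p = 0.000413). Of 17771 genes tested, 2.86% (509) were lower and 0.883% (157) higher in the knockout at an adjusted p under 0.05, together 3.75%. Of genes with a kept region 5.71% were lower (392 of 6863), and of those with a gained region 6.64% (33 of 497). The gained class overlaps the kept one: the share lower was 8.44% with gained and kept regions, 9.76% with all 3 classes, 2.59% with gained and lost regions, and 4.81% with gained regions only (5 of 104). Of those with lost regions only 1.23% were lower (62 of 5023), and of those with no region 0.83% (47 of 5665). The higher calls ran differently, with 0.452% of genes with a kept, 1.81% with a gained and 0.776% with lost regions only, and 1.43% of genes with no region. The median log2 change was -0.10 with a kept region, -0.13 with a gained one, 0.06 with lost regions only and 0.03 over all genes. Exact 95% intervals (Clopper-Pearson, over genes, which are not independent) were 5.17% to 6.29% for kept, 4.61% to 9.20% for gained and 0.948% to 1.58% for lost only.

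The share lower was larger with a kept region than with lost regions only in every alternative that compared them. These were no peak of either replicate at the other age, equal list lengths, other windows around the start and the RNA alternatives. Classes built from 1 list of each age gave 5.18% to 5.46% for kept and 1.06% to 1.09% for lost only. The remaining alternatives of the peak lists were not compared for these shares. Without WT replicate 1 the shares were 3.01% for kept, 2.63% for gained and 0.522% for lost only. Without WT replicate 2 the shares for gained and lost only were 4.26% and 0.605%, and without knockout replicate 1 that for lost only was 0.742%. Scaling to library totals moved the median of all genes by 0.51 and the calls to 324 lower and 474 higher, which is 40.6% lower calls against 76.4%; the shares lower were then 3.65%, 4.05% and 0.755% for kept, gained and lost only. Markers of bile duct cells, 13 genes, summed to 1592 to 3165 normalized reads in WT and 9653 to 11722 in the knockout, without overlap, and none was at 0 in all libraries. Their part in these calls was not tested.

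**Figure D5:**
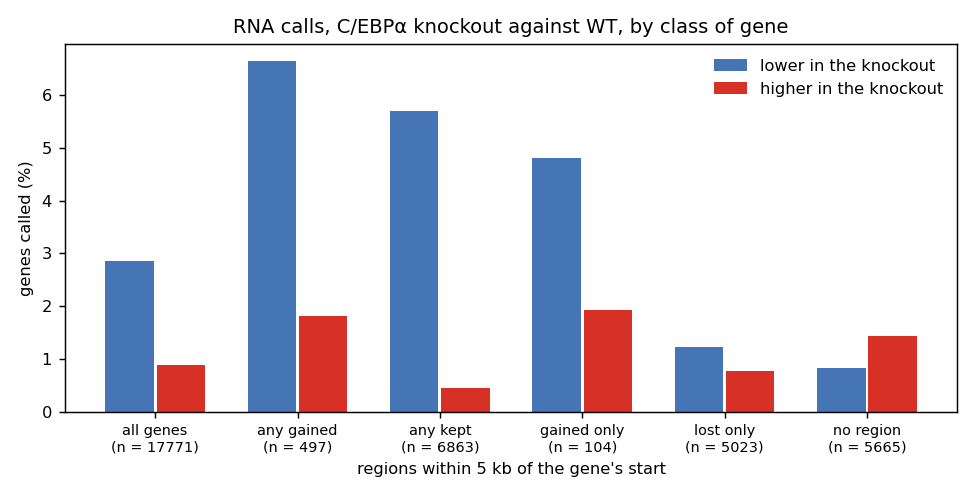
Percent of genes called lower (blue) or higher (red) in the C/EBPα knockout against WT, by the C/EBPα regions within 5 kb of the start; n is the number of genes tested. The share lower is 5.71% with a kept region and 1.23% with lost regions only, against 2.86% of all genes tested.

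Called genes were ranked within those with gained regions only, a kept region, or lost regions only. Among these, the largest falls were at genes with kept regions. Sult3a1, with lost regions only, came close at a log2 change of -7.36. Genes with no region, or with gained and lost regions, were not ranked. Log2 changes of genes near 0 in the knockout depend on the 1 added before the logarithm. Cyp3a25, whose promoter is printed above, was at 1616, 1188 and 1093 normalized reads in WT and 5, 0 and 11 in the knockout (log2 change -8.27 ± 0.82, SE, adjusted p = 0.000213). It had 2 kept regions, with 1 over the start, and 3 lost ones inside the gene. Serpina3k, a protease inhibitor of plasma, was at 53144, 44680 and 4142 in WT and 94, 31 and 219 in the knockout, where WT replicate 3 stood far below the other two (log2 change -7.94 ± 0.91, adjusted p = 0.000565). Cps1 was at 42271, 35402 and 52397 in WT and 185, 87 and 625 in the knockout (log2 change -7.62 ± 0.59, adjusted p = 4.54e-05). Saa4 was at 862, 803 and 798 in WT and 1, 5 and 6 in the knockout, and its only region was kept and held a peak in all 10 C/EBPα lists. Cyp2a4 had 3 kept regions and was at 315, 192 and 369 in WT and 3, 0 and 0 in the knockout. In each of these 5 genes every WT library lay above every knockout library. They were named for the lowest called changes with a kept region, so this separation follows from the choice.

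Several genes with gained regions fell as well. Hpd, an enzyme of tyrosine breakdown, had 1 gained, 1 kept and 2 lost regions. It was at 3879, 5179 and 3219 normalized reads in WT and 23, 30 and 18 in the knockout (log2 change -7.38 ± 0.34, adjusted p = 4.08e-06). Its start lay in a lost region with a peak in both P0.5 lists, and the gained one lay from -5103 to -4428 bp with peaks in all P14 and P60 lists of both factors. Tdo2 was at 50, 67 and 74 in WT and 0, 0 and 1 in the knockout. Mug2, a murinoglobulin, had a gained region over its start as its only region (chr6:121956265-121957088), and its RNA was at 40, 53 and 43 in WT and 0, 0 and 1 in the knockout. Abcg5, a subunit of the sterol exporter to bile, had a gained region over its start (chr17:85082034-85082668), which held a peak of replicate 1 at P0.5, and 1 lost region. It was at 122, 73 and 260 in WT and 3, 1 and 3 in the knockout. All 4 were called lower, and their WT and knockout libraries did not overlap. Hpd, Tdo2 and Mug2 were among the lowest called changes of their class, by which genes were named, so their calls follow from the choice. Abcg5 was named for its gained region.

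Serpina6, which encodes the corticosteroid carrier of blood, moved in the opposite direction. It had 2 gained regions, with 1 over its start (chr12:104895134-104895959), 2 kept and 2 lost. Its RNA was at 173, 166 and 412 normalized reads in WT and 54960, 32605 and 21688 in the knockout (log2 change 7.21 ± 0.47, adjusted p = 2.48e-05). The gained region over the start held a peak in replicate 2 of P0.5, in both lists of E15.5, and in replicate 1 of E18.5, so it was bound before birth in some lists.

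Some genes with lost regions only also changed in the knockout. Sult3a1, a sulfotransferase, was at 409, 398 and 377 normalized reads in WT and 1, 0 and 6 in the knockout. Its single region, from 1832 to 2490 bp after the start, was bound in both lists of E18.5 and P0.5 and in replicate 2 of P60. Lpin1 was at 5249, 5098 and 7324 in WT and 592, 475 and 1682 in the knockout (log2 change -2.90 ± 0.45, adjusted p = 0.00365). Il1rn, the antagonist of the interleukin-1 receptor, was at 540, 560 and 531 in WT and 23, 21 and 18 in the knockout, and 1 of its 2 lost regions held a peak in replicate 1 of P14. Sds, serine dehydratase, was at 79, 153 and 80 in WT and 9, 2 and 2 in the knockout. Its 2 lost regions each held a peak in replicate 2 of P14 and in both P60 lists. Cdh16, a cadherin of the kidney, rose from 0, 0 and 5 in WT to 349, 178 and 262, and its single lost region from -3202 to -2931 bp was seen only in the P0.5 lists. Of the neutrophil markers with lost regions, Ngp was at 13399, 12923 and 12088 in WT and 12161, 15974 and 8595 in the knockout (log2 change -0.11 ± 0.41, adjusted p = 0.948), with overlapping groups. Cxcr2 was at 605, 369 and 265 in WT and 285, 955 and 420 in the knockout, again with overlap. Whether the cells that make the RNA of Ngp and Cxcr2 lost the factor was not tested, so these levels cannot show its role there.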

How the data were processed

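The deposited peak lists hold start and end positions, with a score column that is 0 throughout, so no height or significance was used; per the submitters' processing notes, peaks were called with MACS 1.4 on mm9, and BWA, TopHat2, Cufflinks, DESeq and bedtools are named without a role. Peaks were deposited per sample; read depth is unknown. Positions are printed 1-based. RNA values are reads that the authors normalized, named DESeq-normalized in the deposited table, and rounded; they were handled as a score with no fixed scale; they summed to 13.4 to 26.0 M per library.

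Interval code in Python 3.11.15 was checked against bedtools 2.31.1 on simulated lists. Genes that reached 10 in 2 or more libraries were kept, and log2(value + 1) was fitted with limma 3.58.1 in R 4.3.3, with a trend, over all 8 libraries with a term for group; tests were 2-sided with Benjamini-Hochberg adjustment over 17771 genes. Tested on simulated data for the knockout contrast, 0% of planted 2-fold changes were called, and 26.8%, 50.4% and 73.6% of changes by 4, 8 and 16 times. The RNA replicates carry no stated animal, so p-values measure the spread between these samples.

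The regions compared, the gene lists and the rules were chosen with earlier results of these data known. The rule named Cebpa, Hnf4a, Alb and Afp, up to 4 genes per list with the most gained and the most lost regions, the 10 genes with the most of each over all lists, and, by class, the 8 lowest and 4 highest called changes in RNA. Promoters shown followed the order of that rule, fewer than it allows; a promoter of the multi-copy Astx family was left out. Of 520 list entries, 4 had no match in the gene table. The alternatives tried were another overlap, a peak of either replicate, no peak of either replicate at the other age, equal list lengths, single lists left out, same-numbered pairs, other windows around the start and, for RNA, another pseudocount, no filter, library totals, a replicate block and single libraries left out; leaving out X and Y was chosen after seeing the data.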

Additional observations from a re-analysis of the deposited data

How the results depend on the processing

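No called change in RNA of a named gene turned its direction, but at equal list lengths more regions were gained than lost. With a peak of either replicate sufficing, 5605 regions and 1296 genes were gained; a C/EBPα region at P60 was then on 39.4% of gained, 67.8% of kept and 8.00% of lost regions, and an HNF4α region at P14 on 32.8%, 35.0% and 4.81%. With no peak allowed in either list of the other age, 2157 regions were gained at 415 genes, and lost regions had 9.21% at P60 and 4.60% with HNF4α. At equal list lengths 16474 regions were gained, 16317 kept and 10139 lost, at 4606, 6069 and 3318 genes; the P60 shares were 71.5%, 85.3% and 19.3%, and those of HNF4α 32.8%, 51.5% and 10.95%. An overlap of at least 50% moved only the HNF4α share of lost regions, to 7.16%, among the results named here. Leaving out 1 list gave 2591 to 6886 gained regions (6886 without P14 replicate 1, 5784 without P14 replicate 2) at 558 to 1683 genes. The P60 shares were then 45.9% to 58.9% of gained, 72.3% to 78.7% of kept and 10.98% to 13.4% of lost regions, and the HNF4α shares 32.2% to 40.6%, 36.4% to 40.9% and 5.89% to 6.94%. Same-numbered pairs of lists, as a replicate block, gave 2184 gained regions at 423 genes, and 9.29% and 4.71% of lost regions with P60 and HNF4α. Without X and Y, 60.5% of gained regions had a P60 region. Within 1 kb of the start there were 258 genes with a gained, 5527 with a kept and 6288 with a lost region, and within 10 kb 1362 with a gained one. The cause of these shifts was not tested.

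For RNA, library totals gave 324 lower and 474 higher genes, and leaving out 1 library gave 255 to 664 lower (255 without WT replicate 1) and 56 to 140 higher. A replicate block gave 399 lower and 110 higher. Same-numbered libraries correlated at -0.06, 0.19 and -0.23 in their deviations from the group means, so the numbers were not taken as pairs. Of 59 named genes called, 36 were called under every alternative. The depth of the peak lists is unknown, which limits what an uncalled peak shows.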
